A study of Homo sapiens with 4 samples.

Results

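The genes described here encode proteases of the extracellular matrix, their inhibitors and the components of plasminogen activation, in SK-MEL-28 and A375, established human melanoma cell lines. They were chosen by name: MMP1, MMP2, MMP14, TIMP1, TIMP2, TIMP3, PLAU, PLAUR and PLAT, and 8 of these 9 have a row among the 17755 genes of the expression table. PLAU has no row and was not analysed here. Each line received either small interfering RNA against the long noncoding RNA LINC00622 (siLINC00622) or a control siRNA (siNC), for 6 h in medium without serum, and was then kept for 24 h in medium with 10% serum. Poly(A)-selected RNA gave 4 paired-end libraries, and as each condition has a single library, differences within a line have no replicate check. The study also assayed the cells, and reported less migration in both lines and less invasion in SK-MEL-28 after LINC00622 depletion. Transcripts of matrix proteases bear on matrix breakdown, and any link between their values and those assays was not tested. Both lines are cultured without a stroma, so proteases that other cells of a tumour supply are not measured.

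Matrix metalloproteinases are zinc-dependent enzymes that are made as inactive precursors and cut collagens, gelatin, basement membrane proteins and one another. Tissue inhibitors of metalloproteinases (TIMPs) occupy their catalytic cleft, and TIMP2 also bridges MMP14 to the MMP2 precursor on the cell surface so that a neighbouring MMP14 can cleave it. In the plasminogen system, the urokinase encoded by PLAU, held on the membrane by its receptor (PLAUR), and the tissue-type activator encoded by PLAT convert plasminogen to plasmin, which degrades fibrin and activates further proteases. Melanoma cells are known to use both systems when they cross the dermis.

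The siRNA target sequences are shown because the knockdown rests on them and because the bases opposite the guide strand's seed can also occur in other transcripts. They are written as DNA, 5′ to 3′, with the letters that pair with guide positions 2 to 8 in capitals.
siLINC00622_1: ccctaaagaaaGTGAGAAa
siLINC00622_2: ggcaacctctaATTGACTt
The sequences match bases 555 to 573 and 815 to 833 of the annotated LINC00622 transcript, and the sources used here do not say which of them was used for the libraries. For this matching each gene was represented by its coding transcript with the longest annotated 3′ UTR. The word GTGAGAA occurs in that 3′ UTR in 14.6% of 12186 genes and ATTGACT in 11.6%. Among the 8 genes, a match was found in PLAUR alone, with 1 site for siLINC00622_1 and 0 for siLINC00622_2. The PLAUR site (GRCh38 chr19:43646186-43646192, minus strand) lies at base 268 of a 3′ UTR of 365 bases in 1 of 6 annotated coding transcripts with a 3′ UTR, and its surroundings read as follows.
PLAUR site: actttgggaggGTGAGAAaggaagatctc
The table gives 1 value per gene and does not separate these transcripts, so the part of this site in the PLAUR values below was not tested.

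Promoter windows of 300 bases, 250 before and 50 from the RefSeq start site (GRCh38.p14), were matched for MMP14, PLAU, PLAUR, TIMP1 and TIMP3. PLAT was left out of this matching, and MMP1, MMP2 and TIMP2 had no window. Those of PLAUR, MMP14 and TIMP3 are printed because PLAUR has the lower values with siLINC00622 in both lines and the other 2 the higher values. Capitals mark the AP-1 word TGANTCA, the site of FOS and JUN dimers that many protease genes carry, and the GC box GGGCGG, a site of SP1, on either strand.
PLAUR promoter (chr19:43670120-43670419, minus strand): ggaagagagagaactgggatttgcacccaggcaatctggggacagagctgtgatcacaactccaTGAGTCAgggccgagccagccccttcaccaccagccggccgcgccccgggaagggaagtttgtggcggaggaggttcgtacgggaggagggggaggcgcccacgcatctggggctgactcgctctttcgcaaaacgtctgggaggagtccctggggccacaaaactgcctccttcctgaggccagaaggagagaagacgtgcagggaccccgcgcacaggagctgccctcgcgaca
MMP14 promoter (chr14:22836335-22836634, plus strand): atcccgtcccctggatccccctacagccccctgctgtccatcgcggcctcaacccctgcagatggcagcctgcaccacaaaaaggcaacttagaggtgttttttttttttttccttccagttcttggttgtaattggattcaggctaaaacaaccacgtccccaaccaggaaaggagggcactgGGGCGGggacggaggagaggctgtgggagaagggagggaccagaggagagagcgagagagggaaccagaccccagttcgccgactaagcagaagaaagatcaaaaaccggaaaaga
TIMP3 promoter (chr22:32801455-32801754, plus strand): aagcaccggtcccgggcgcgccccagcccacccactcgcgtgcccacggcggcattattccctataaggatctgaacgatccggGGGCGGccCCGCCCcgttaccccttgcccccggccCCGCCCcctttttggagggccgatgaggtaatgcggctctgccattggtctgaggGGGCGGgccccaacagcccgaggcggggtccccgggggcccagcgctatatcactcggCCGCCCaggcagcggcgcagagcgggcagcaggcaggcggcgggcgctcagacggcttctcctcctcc
PLAUR held 1 AP-1 word, which starts at position -186 relative to the start site, and no GC box. MMP14 held 1 GC box, which starts at -66, and TIMP3 held 5, and neither held an AP-1 word. An AP-1 word occurs in 7.72% of 34943 promoter windows of this length and a GC box in 44.9%. The words CACGTG and GGAATG, the E-box and the TEAD word, occur in 7.23% and 14.0% of all windows and in 0 of the 3 printed. TIMP1, whose ratio was below 0 in SK-MEL-28 and above 0 in A375, held 2 GC boxes and no AP-1 word in its window. Any link between these words and the ratios was not tested.

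The libraries held 31269923 to 36384819 counts, and listed genes took 99.7% to 99.8% of them. Values below are given for siNC first and for siLINC00622 second. LINC00622 had 309 and 135 counts in SK-MEL-28, a log2 ratio of -1.21 (95% counting interval -1.53 to -0.93). In A375 it had 135 and 86 counts, a log2 ratio of -0.84 (-1.27 to -0.46). Levels are given as FPKM, fragments scaled for transcript length and library size, as deposited. No gene of the table has a mean FPKM over the 4 libraries below 0.25, so genes without a row, PLAU among them, may lie below that level. Changes are log2 ratios of siLINC00622 over siNC from the deposited counts, scaled within a line by the TMM method, with a Clopper-Pearson interval that covers counting error only and not the spread between cultures. A gene was counted as past the threshold when this ratio exceeded 1.5-fold and either library of the line had 10 counts or more, which held for all 8 genes. Melanocyte lineage markers, 8 of 8 listed, summed to between 2061 and 2210 FPKM in SK-MEL-28 and between 133 and 166 in A375. In A375 most of this sum was SOX10, with 118 and 149 FPKM. PMEL, MLANA, TYR, DCT and TYRP1 lay between 0.044 and 2.35 FPKM there. Of 7 fibroblast markers 2 are listed, with a sum of 9.09 to 9.80 FPKM in SK-MEL-28 and 4.10 to 5.93 in A375, and COL1A1, COL1A2, COL3A1, DCN and PDGFRA have no row.

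The lines expressed different metalloproteinases. In bulk RNA, fewer cells that express a gene and less of its RNA per cell cannot be told apart. MMP14, the membrane-anchored collagenase that activates the MMP2 precursor, measured 135 and 180.4 FPKM in SK-MEL-28, against 24.0 and 30.0 in A375. MMP2, gelatinase A, measured 1.39 and 1.43 FPKM in SK-MEL-28, against 46.1 and 73.9 in A375. MMP1, the interstitial collagenase, measured 0.849 and 1.25 FPKM in SK-MEL-28, against 3.87 and 5.79 in A375. In all 3 genes the libraries of a line lay together and apart from the other line, with MMP14 high in SK-MEL-28 and MMP2 and MMP1 high in A375. The mean FPKM of MMP14 was 5.85 times as high in SK-MEL-28, and the means of MMP2 and MMP1 were 42.5 and 4.60 times as high in A375.

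MMP14 made up 98.4% of the summed FPKM of these 3 metalloproteinases with siNC in SK-MEL-28 and 98.5% with siLINC00622. In A375, MMP2 made up 62.3% and 67.4% and MMP14 the smaller share of 32.5% and 27.3%. The sum itself came to 137.6 and 183 FPKM in SK-MEL-28, against 73.9 and 109.7 in A375, so it was higher with siLINC00622 in both lines.

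**Figure D1:**
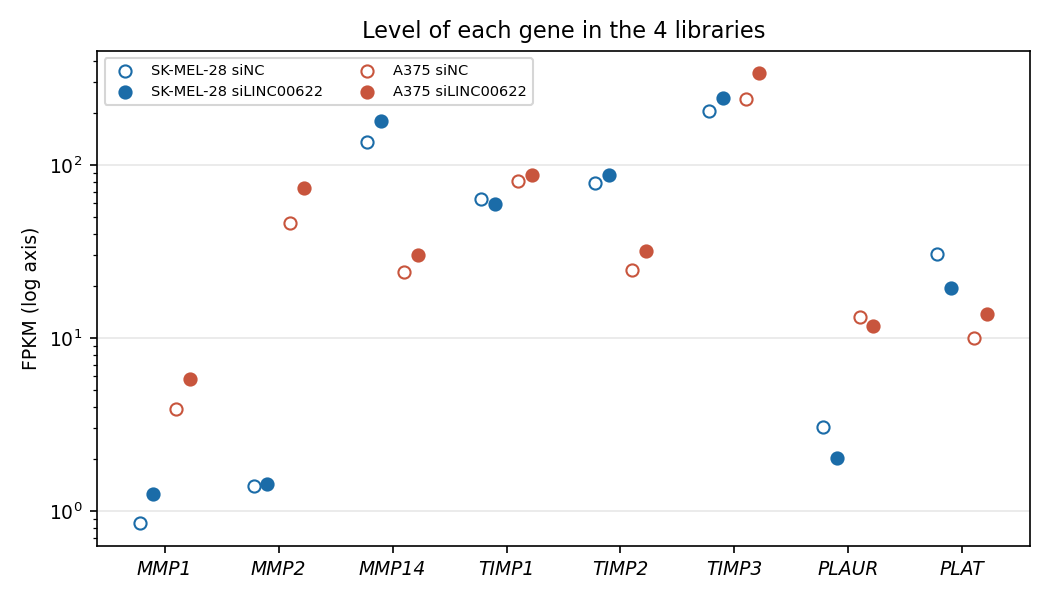
Level of each of the 8 genes in the 4 libraries, as FPKM on a log axis, with 1 point per library, open for siNC and filled for siLINC00622. MMP2 lies at 1.39 and 1.43 FPKM in SK-MEL-28 and at 46.1 and 73.9 in A375, whereas the TIMP3 points lie between 205 and 339.

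The inhibitors were present at high levels in both lines. TIMP3, which is bound to the matrix and also inhibits adamalysins, measured 205 and 243 FPKM in SK-MEL-28, against 239.9 and 339 in A375. It topped the 8 genes in all 4 libraries and ranked between 69 and 111 among all 17755 genes. TIMP1, a secreted inhibitor of many metalloproteinases, measured 63.4 and 59.3 FPKM in SK-MEL-28, against 80.7 and 87.9 in A375. TIMP2, which takes part in MMP2 activation as well as in inhibition, measured 78.5 and 87.6 FPKM in SK-MEL-28, against 24.8 and 31.6 in A375. TIMP2 thus had the same order between lines as MMP14, and as a ratio of FPKM, TIMP2 over MMP14 was 0.580 and 0.485 in SK-MEL-28, against 1.03 and 1.05 in A375.

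The summed FPKM of the TIMPs came to 347 and 390.1 in SK-MEL-28, against 345 and 458 in A375. Divided by the summed FPKM of MMP14, MMP2 and MMP1, it gave 2.52 and 2.13 in SK-MEL-28, against 4.67 and 4.18 in A375. This quotient of transcript levels was lower with siLINC00622 in both lines, by less than the distance between the lines. It is not a measure of enzyme activity, and it depends on which metalloproteinases are summed. Left out were, for example, MMP17 (41.8 and 51.8 FPKM) and MMP8 (33.0 and 29.1), both in SK-MEL-28. For A375, MMP16 (14.0 and 14.7 FPKM) was also left out. A quotient that includes these genes was not calculated.

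**Figure D2:**
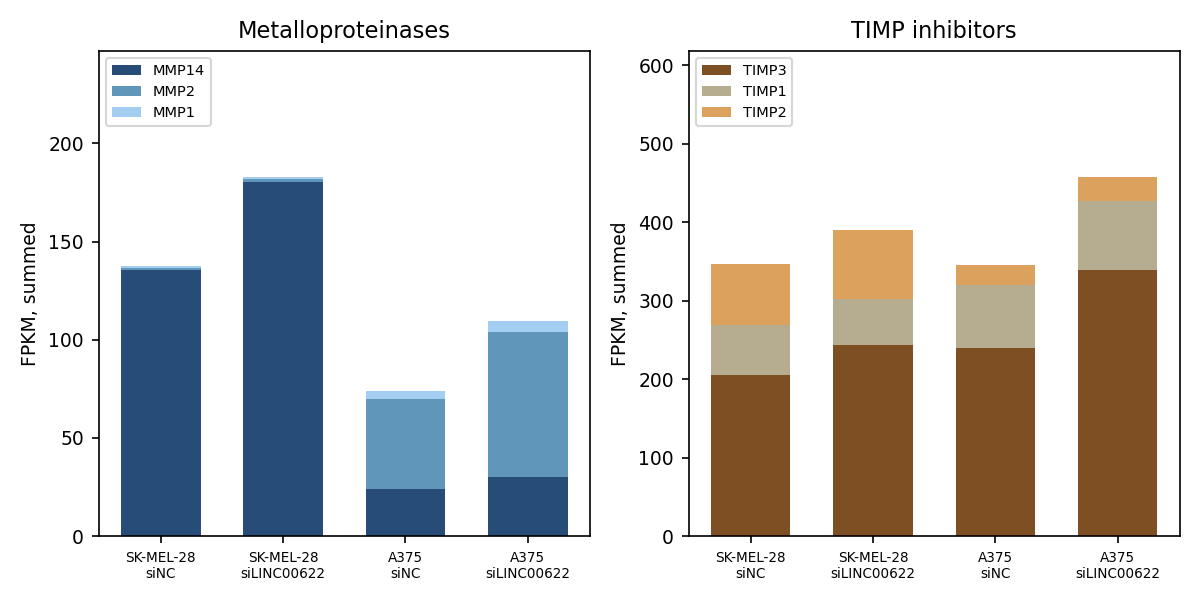
Summed FPKM of MMP14, MMP2 and MMP1 (left) and of TIMP3, TIMP1 and TIMP2 (right), with 1 stacked bar per library. MMP14 fills 98.4% of the siNC bar of SK-MEL-28, and MMP2 fills 62.3% of that of A375.

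Of the plasminogen activation genes, PLAT measured 30.7 and 19.4 FPKM in SK-MEL-28, against 9.99 and 13.7 in A375. PLAUR measured 3.06 and 2.01 FPKM in SK-MEL-28, against 13.2 and 11.6 in A375. The activator was therefore higher in both SK-MEL-28 libraries and the receptor in both A375 libraries, by 2.11 and 4.91 times as ratios of the line means.

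In the order of levels in SK-MEL-28, TIMP3 was followed by MMP14, TIMP2, TIMP1, PLAT, PLAUR, MMP2 and MMP1, and no neighbours overlapped over the 2 libraries. In A375 the order was TIMP3, TIMP1, MMP2, TIMP2, MMP14, PLAUR, PLAT and MMP1 by the mean of the 2 libraries. There, TIMP2 overlapped with MMP14 and PLAUR with PLAT, and the other neighbours did not overlap.

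The difference between lines was tested by edgeR's quasi-likelihood test on the 4 libraries with a term for the treatment, over 16742 genes, so that each line has 2 libraries that differ in treatment. Of the 8 genes 7 passed an adjusted p of 0.05, where 67.7% of all genes tested did, 33.4% higher in SK-MEL-28 and 34.3% higher in A375, so little can be read from the count. The genes higher in SK-MEL-28 were MMP14 (log2 fold change 2.72 ± 0.08, SE, adjusted p = 6.68e-07), TIMP2 (1.74 ± 0.09, adjusted p = 5.95e-06) and PLAT (1.23 ± 0.24, adjusted p = 0.00334). Those higher in A375 were MMP2 (-5.20 ± 0.18, adjusted p = 9.45e-07), PLAUR (-2.14 ± 0.14, adjusted p = 1.49e-05), MMP1 (-2.03 ± 0.16, adjusted p = 4.58e-05) and TIMP1 (-0.29 ± 0.10, adjusted p = 0.0366). TIMP3, with a log2 fold change of -0.18 ± 0.09, did not pass by this test (adjusted p = 0.111). TIMP1 no longer passed with DESeq2's Wald test (adjusted p = 0.0951), within a range of 0.00471 to 0.0951 over the alternatives.

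With siLINC00622, the metalloproteinase ratios were above 0 in both lines. MMP1 went from 77 to 117 counts in SK-MEL-28, a log2 ratio of 0.56 (0.15 to 1.01), and from 331 to 577 in A375, a log2 ratio of 0.59 (0.39 to 0.79). MMP14 went from 20726 to 28500 counts in SK-MEL-28, a log2 ratio of 0.43 (0.40 to 0.45), and from 3468 to 5046 in A375, a log2 ratio of 0.33 (0.27 to 0.39). The ratio of MMP1 was near the 1.5-fold line in both lines, just inside it at 1.47-fold in SK-MEL-28 and just past it at 1.505-fold in A375. MMP2 went from 217 to 230 counts in SK-MEL-28, a log2 ratio of 0.05 (-0.22 to 0.33) whose interval spans 0. In A375 it went from 6778 to 12662 counts, a log2 ratio of 0.69 (0.65 to 0.73). MMP2 thus had the highest ratio of the 8 genes in A375, and its ratio was 0.64 lower in SK-MEL-28, with a counting interval of 0.37 to 0.91 for that gap.

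Among the inhibitors, TIMP3 went from 31240 to 38195 counts in SK-MEL-28, a log2 ratio of 0.26 (0.24 to 0.28), and from 34479 to 56667 in A375, a log2 ratio of 0.51 (0.49 to 0.53). TIMP2 went from 14635 to 16854 counts in SK-MEL-28, a log2 ratio of 0.17 (0.14 to 0.20), and from 4365 to 6477 in A375, a log2 ratio of 0.36 (0.30 to 0.42). Both were above 0 in each line and higher in A375, and neither passed 1.5-fold. TIMP1 went from 3036 to 2929 counts in SK-MEL-28, a log2 ratio of -0.08 (-0.16 to -0.01), and from 3650 to 4623 in A375, a log2 ratio of 0.13 (0.07 to 0.19). Its values lay within 1.10-fold in either direction, the smallest departure of the 3 inhibitors in both lines.

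The plasminogen activation genes held the ratios furthest below 0. PLAT went from 7909 to 5145 counts in SK-MEL-28, a log2 ratio of -0.65 (-0.70 to -0.60), and from 2428 to 3877 in A375, a log2 ratio of 0.47 (0.39 to 0.54). The tissue-type activator was thus lower with siLINC00622 in SK-MEL-28 and higher in A375, a gap of -1.12 on the log2 scale (-1.21 to -1.03), the widest of the 8 genes. PLAUR went from 451 to 306 counts in SK-MEL-28, a log2 ratio of -0.59 (-0.81 to -0.38), and from 1840 to 1889 in A375, a log2 ratio of -0.17 (-0.27 to -0.08). PLAUR was the 1 gene of the 8 with ratios below 0 in both lines, and its count in A375 was higher with siLINC00622 only before the library sizes were taken into account.

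**Figure D3:**
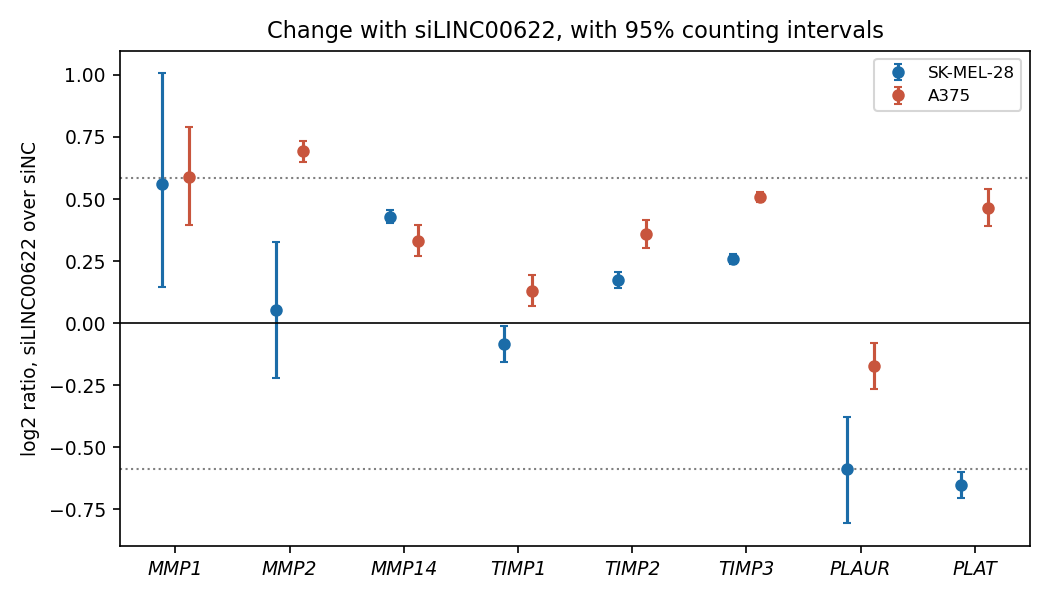
Log2 ratio of siLINC00622 over siNC for each gene in SK-MEL-28 and A375, with 95% counting intervals as bars and dotted lines at 1.5-fold. PLAT lies at -0.65 in SK-MEL-28 and at 0.47 in A375, and MMP2 at 0.05 and 0.69.

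Past 1.5-fold were 2 of the 8 genes in SK-MEL-28, where 11.0% of 15442 genes were past it. These were PLAT and PLAUR, both lower with siLINC00622, as were 6.49% of genes. On the other side, 0 of 8 were higher in SK-MEL-28, against 4.56% of genes. In A375, 2 of 8 were past 1.5-fold, against 8.86% of 16021 genes. These were MMP2 and MMP1, both higher, against 4.52%, and 0 of 8 were lower, against 4.34%. PLAUR and MMP1 stood just past the line, and each fell short of it under several other scalings. For the 8 genes the median log2 ratio was 0.11 (SK-MEL-28) and 0.41 (A375), and for all genes tested it was -0.0040 and 0.0043.

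By counting error alone, the interval lay above 0 in SK-MEL-28 for 4 of the 8 genes and below 0 for 3, against 22.9% and 24.0% of all genes tested. In A375 it lay above 0 for 7 and below 0 for 1, against 23.8% and 22.0%. Intervals narrow as counts rise, so that of TIMP3, at 31240 counts or more, is narrower than that of MMP1 in either line. Directions differed between the lines, with both intervals off 0, in 2 of 8 genes, PLAT and TIMP1, and in 6.40% of the 14721 genes tested in both lines. The TIMP1 interval in SK-MEL-28 ended at -0.0093. Its ratio there was -0.083 by TMM and -0.072 with DESeq2 size factors, a shift wider than that margin, so the TIMP1 call depends on the scaling. The sign was the same in both lines for the other 6, against 62.2% of genes.

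A test of the treatment over both lines was possible with the lines as the replicates and a term for the line, by edgeR's quasi-likelihood test with 1 residual degree of freedom. It called 0 of 8 genes at an adjusted p of 0.05, against 0.436% of 16742 genes (0.197% higher and 0.239% lower), and 6 of 8 at an unadjusted p of 0.05, against 14.5%. DESeq2 called 2 of the 8, MMP14 and TIMP3, against 305 of 16742 genes, and gave no adjusted p for MMP1. By limma on the FPKM values 0 of 8 were called, against 1 of 16742 genes. The log2 fold change was 0.39 ± 0.08 (SE) for MMP14 (adjusted p = 0.108), 0.39 ± 0.09 for TIMP3 (adjusted p = 0.125), 0.60 ± 0.16 for MMP1 (adjusted p = 0.174) and 0.28 ± 0.09 for TIMP2 (adjusted p = 0.230). It was 0.46 ± 0.16 for MMP2 (adjusted p = 0.25) and -0.35 ± 0.13 for PLAUR (adjusted p = 0.304). For PLAT and TIMP1, whose ratios had opposite signs in the lines, it was -0.09 ± 0.24 and 0.04 ± 0.10, with adjusted p-values of 0.905 and 0.909.

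Further genes, 67 by name and called other protease system genes here, had 44 rows in the table. Besides further genes of the 2 systems, they include a broader list of adamalysins and other surface, secreted or lysosomal enzymes, which holds 20 of these rows. In SK-MEL-28, 38 of them were tested, and 1 was past 1.5-fold in the higher direction and 6 in the lower, where 4.56% and 6.49% of all genes were, with a median log2 ratio of -0.11. In A375, 43 were tested, and 6 were past it in the higher direction and 1 in the lower, where 4.52% and 4.34% of all genes were, with a median of 0.22. The treatment test called 0 of the 44 and 0.436% of all genes by edgeR. At an unadjusted p of 0.05 it gave 12 of the 44 and 14.5% of all genes, and DESeq2 called 1 of the 44 and 305 of 16742. The line test called 36 of the 44, where it called 67.7% of all genes, and of these 36 genes 21 were higher in A375 and 15 higher in SK-MEL-28.

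Among the partners of plasminogen activation, the log2 ratio was below 0 in all 10 genes tested in SK-MEL-28, with a median of -0.27, and above 0 in 8 of 11 in A375, with a median of 0.22. Of all genes tested, 7800 of 15442 were below 0 in SK-MEL-28 and 8117 of 16021 above 0 in A375. The counting interval lay below 0 for 6 of the 10 in SK-MEL-28, against 24.0% of all genes tested. For A375 it lay above 0 for 4 of the 11 and below 0 for 1, against 23.8% and 22.0%. SERPINE2, protease nexin 1, which inhibits both activators and thrombin, had 22046 and 14093 counts in SK-MEL-28, a log2 ratio of -0.68 (-0.71 to -0.65). In A375 it had 68091 and 110385, a log2 ratio of 0.49 (0.47 to 0.50). SERPINE2 thus had the same pair of directions as PLAT, the activator that it can inhibit.

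SERPINB2, plasminogen activator inhibitor 2, had 65 and 31 counts in SK-MEL-28, a log2 ratio of -1.05 (-1.77 to -0.46), and 3 and 2 counts in A375, where it was not tested. SERPINF2, the plasmin inhibitor, had 54 and 99 counts in A375, a log2 ratio of 0.65 (0.17 to 1.17), and 5 and 8 in SK-MEL-28. In SK-MEL-28, the surface receptors on this list were nearer to 0 than SERPINE2 and SERPINB2. LRP1, also on the list, had -0.05 (-0.11 to 0.01) in SK-MEL-28 and 0.44 (0.39 to 0.49) in A375. ANXA2 and S100A10, which form a complex that binds plasminogen and the tissue-type activator, had log2 ratios of -0.45 and -0.34 in SK-MEL-28, against 0.06 and -0.03 in A375. PLGRKT, a plasminogen receptor, had -0.17 and -0.07, and ENO1, a glycolytic enzyme that also binds plasminogen at the surface and has the highest FPKM of this list, had -0.01 and -0.02.

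Of 8 other metalloproteinases with a row, the line test called 6, where it called 67.7% of all genes. MMP17, the highest of them by FPKM in SK-MEL-28, measured 41.8 and 51.8 FPKM there, against 6.19 and 6.75 in A375. In A375 the highest of them was MMP16, with 14.0 and 14.7 FPKM. The log2 ratio of MMP17 was 0.33 (0.27 to 0.38) in SK-MEL-28 and 0.13 (-0.0036 to 0.27) in A375. MMP19 had 113 and 275 counts in A375, a log2 ratio of 1.06 (0.75 to 1.40), and 2 and 0 counts in SK-MEL-28. MMP3, stromelysin 1, which lies in the same gene cluster on chromosome 11 as MMP1, had 293 and 185 counts in A375, a log2 ratio of -0.87 (-1.15 to -0.60), opposite in sign to that of MMP1 in the same libraries. In SK-MEL-28, MMP3 had 14 and 19 counts. MMP15, a membrane-anchored relative of MMP14, had 640 and 405 counts in SK-MEL-28, a log2 ratio of -0.69 (-0.87 to -0.51), also opposite in sign to MMP14, and -0.06 (-0.25 to 0.12) in A375.

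The inhibitors and helpers of metalloproteinases outside the TIMP family stayed within 1.5-fold, apart from SPOCK1 in A375. SPOCK1, a secreted proteoglycan of the testican family, had 2232 and 4527 counts in A375, a log2 ratio of 0.81 (0.74 to 0.88), and -0.35 (-0.60 to -0.10) in SK-MEL-28. BSG, the surface glycoprotein known as a metalloproteinase inducer, had a log2 ratio of 0.15 in both lines. RECK, a membrane-anchored inhibitor of MMP2 and MMP14, had -0.06 (-0.26 to 0.14) in SK-MEL-28 and 0.28 (0.06 to 0.50) in A375.

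Among adamalysins and other proteases, the lysosomal cathepsin CTSL had 7136 and 12529 counts in SK-MEL-28, a log2 ratio of 0.78 (0.74 to 0.82), and 0.19 in A375. CTSD, the cathepsin with the highest FPKM in SK-MEL-28, had 0.54 and 0.49. ADAM9, a membrane sheddase, had a log2 ratio of -0.75 (-0.80 to -0.69) in SK-MEL-28 and 0.16 in A375. In A375 the genes past 1.5-fold were HTRA1, a secreted serine protease (0.77, 0.57 to 0.96), ADAM19 (0.64, 0.54 to 0.75) and ADAMTS9 (0.80, 0.30 to 1.36), all higher with siLINC00622. HPN, which encodes the serine protease hepsin, had 27 and 12 counts in SK-MEL-28, a log2 ratio of -1.08 (-2.32 to -0.17), and is named here for completeness after its value was seen.

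**Figure D4:**
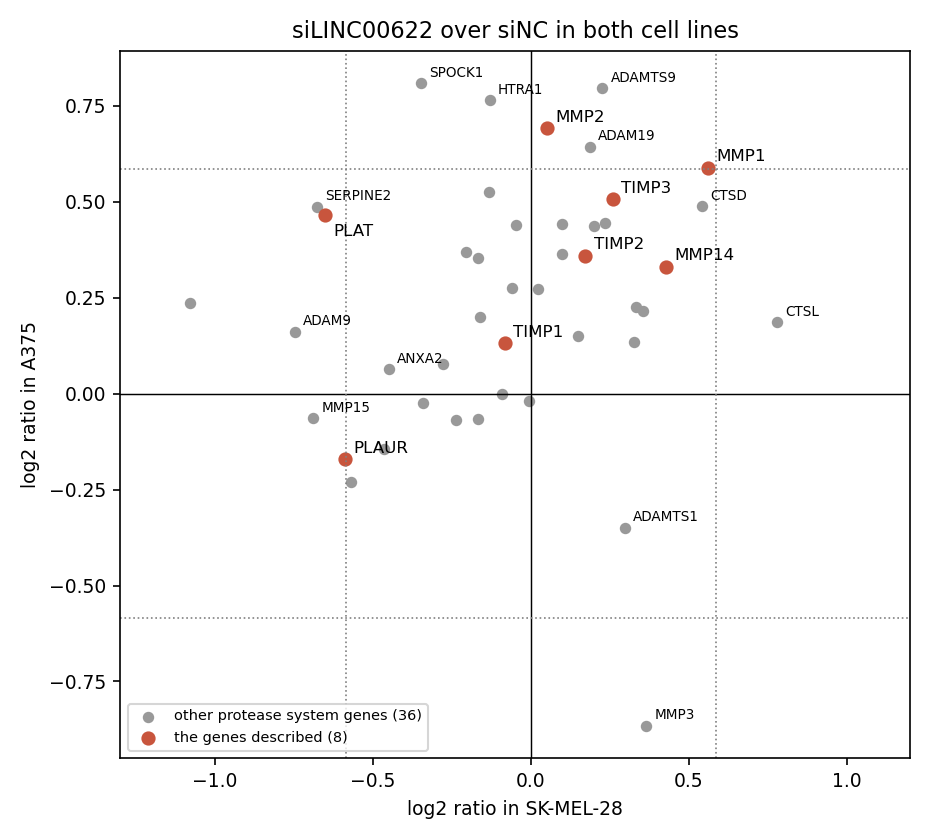
Log2 ratio of siLINC00622 over siNC in SK-MEL-28 (horizontal) against A375 (vertical), for the 8 genes and for 36 other protease system genes tested in both lines, with 1 point per gene and dotted lines at 1.5-fold. PLAT and SERPINE2 lie together at -0.65 and -0.68 in SK-MEL-28, against 0.47 and 0.49 in A375.

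MMP2 had the widest range of the 8 genes over the 4 libraries, 5.57 on a log2 scale. Of 14296 genes compared after centring each on its mean, the nearest in profile were MYH15, CHRDL1 and EMILIN1, at distances of 0.11, 0.16 and 0.25 in log2 units. EMILIN1, an elastin-associated matrix glycoprotein, measured 0.572 and 0.562 FPKM in SK-MEL-28, against 22.2 and 28.1 in A375. These genes share with MMP2 a level that is low in SK-MEL-28 and high in A375, and 4 libraries of 2 lines leave many genes with such a profile.

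By the GENCODE 29 annotation (GRCh38), MMP2, MMP1, TIMP1, TIMP2, TIMP3 and PLAUR overlap other annotated genes, such as WTAPP1 at MMP1 and MMP2-AS1 at MMP2, and none of those has a row in the table. Without stated strand information, reads from both strands of such a locus cannot be told apart. MMP14 (chromosome 14, 22836557 to 22849027) and PLAT (chromosome 8, 42175233 to 42207724) overlap no other annotated gene.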

How the data were processed

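RNA-Seq counts of 4 libraries were analysed, with 1 library per cell line and treatment, grouped by the labels. The genes and lists were chosen with earlier results of these data known. The authors deposited raw counts per gene, CPM values scaled to the library total (used for the totals), and FPKM values corrected for gene length and depth. The method behind FPKM and the strand setting are not given in the sources used here. The authors also deposited TPM values, scaled for gene length, which were left out. The submitters' processing notes name HISAT2, TopHat2, Bowtie2, HISAT and hg19, without roles.

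Ratios used TMM within each line (edgeR 4.0.16, R 4.3.3) with a prior count of 2, at least 10 counts in 1 library, and 95% Clopper-Pearson intervals. Effective library sizes were apart by 0.03 (SK-MEL-28) and 0.21 (A375) on the log2 scale. Tests over lines used edgeR's quasi-likelihood test on line and treatment with Benjamini-Hochberg adjustment, with DESeq2 1.42.0 and limma 3.58.1 as alternatives. With no label of separate cultures, p-values measure the spread between these libraries only. The genes named are the members, listed genes past 1.5-fold with at least 50 counts, a set of system partners, the highest gene of each list and the 3 nearest profiles. The values of 1 listed gene are not reported here, though the counts over lists include it. Scripts were tested on simulated data. Sequences came from RefSeq, GENCODE 29 and the study's siRNA list, with Python 3.11.15.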

Additional observations from a re-analysis of the deposited data

Results flagged for a closer look

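Opposite directions in the lines were seen, with both counting intervals off 0, in 10 of the genes described or listed, namely 2 of the 8 genes and 8 of the 37 others tested in both lines, against 6.40% of all genes. The difference between the lines was not tested, since each line has 1 library per treatment. The log2 ratio in SK-MEL-28 minus that in A375 was -1.12 for PLAT and -0.21 for TIMP1. The TIMP1 call depends on the scaling, as its interval in SK-MEL-28 ended at -0.0093. The difference was -1.16 for SERPINE2, -1.16 for SPOCK1, -0.91 for ADAM9, -0.90 for HTRA1, -0.52 for MMP8, -0.52 for ANXA2 and -0.36 for MMP16, all lower in SK-MEL-28. ADAMTS1 was the 1 gene with the opposite order, with a difference of 0.65.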

How the results depend on the processing

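The direction of each of the 8 genes' log2 ratios was the same under every scaling, prior count and pseudocount tried, in both lines. Counting intervals were not recalculated under the other scalings. The number of genes past 1.5-fold was less stable. In SK-MEL-28 the 2 genes became 1, PLAT, with DESeq2 size factors and with either pseudocount on the FPKM values (1 or 0.1). In A375 the 2 genes became 1, MMP2, with library totals and with either FPKM pseudocount. The study's fold and p thresholds left 0 in each line in an exact test, with the test and its fixed dispersion of 0.1 chosen here. With FPKM and a pseudocount of 1, the other protease system genes past 1.5-fold fell from 7 to 4 in SK-MEL-28 and from 7 to 3 in A375, and the MMP1 ratio in SK-MEL-28 was 0.28. The shares of all genes under these alternatives are not reported here, so the counts have no background to be read against.

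The treatment test over both lines called 0 of the 8 genes by edgeR and 2 by DESeq2, MMP14 (adjusted p = 0.0114) and TIMP3 (adjusted p = 0.0226). Over all genes it called 73 by edgeR, 305 by DESeq2, 121 with no filter on low counts, 1 with at least 50 counts, 1 by limma and 0 without a term for the line. For the line difference, TIMP1 also lost its call without the treatment term (adjusted p = 0.0677) and TIMP3 gained one with limma (adjusted p = 0.0141). The cause of these changes was not tested. No replicate could be left out, as each condition has a single library.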
